A study of Rattus norvegicus with 6 samples.

Results

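The genes of the AP-1, ATF3 and C/EBPβ stress response were followed in the vestibular epithelium of rats exposed to an ototoxic nitrile. The genes were chosen by name, with earlier results of these data known. They are Atf3, Cebpb, Egr1, the FOS family genes Fos, Fosb, Fosl1 and Fosl2, and the JUN family genes Jun, Junb and Jund. They are 10 of the 32883 genes in the table, and 8 of them were among the 14352 genes with enough counts to be tested. Fosb and Fosl2 were removed by the filter on low counts and are described by their counts.

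RNA-seq libraries were available from 6 male adult Long-Evans rats. The 3 IDPN-4wk rats had 20 mM 3,3'-iminodipropionitrile (IDPN), a nitrile toxic to sensory hair cells (HCs), in their drinking water for 4 weeks, and the 3 control rats had water with nothing added. Each library is 1 animal and pools its 2 utricles and 6 cristae, so a value is an average over HCs, supporting cells and every other cell left in the dissected epithelium. The comparison asks which of these transcription factor genes differ in RNA level between exposed and control epithelium.

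AP-1 is a dimer of basic leucine zipper proteins, in most cases a FOS protein bound to a JUN protein, and it binds the letters TGANTCA in DNA. Many FOS and JUN genes, together with Egr1, are immediate early genes: growth factors, stress and injury switch them on within minutes through MAP kinases, without new protein synthesis. ATF3 is a stress-induced relative of the CREB factors that can pair with JUN proteins and is widely used as a marker of injured sensory neurons, and C/EBPβ drives acute phase and inflammatory genes.

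Counts per library ranged from 13358678 to 18561991. Values are given as CPM, the usual counts relative to the library size after TMM scaling, in which 3 counts are worth 0.155 to 0.216 CPM. CPM is not corrected for transcript length, so levels were compared between libraries and not between genes. Padj is the Benjamini-Hochberg adjusted p of edgeR's quasi-likelihood test over all genes tested, and a gene was called when it was under 0.05 with a fold change over 1.5. By this rule 1394 of the 14352 genes tested (9.71%) were called, 444 (3.09%) as upregulated and 950 (6.62%) as downregulated in IDPN-4wk. The groups did not overlap in 37.8% of the genes tested, and in 18.5% every IDPN-4wk library was above every control library. Of 18 HC markers, 12 were downregulated and none upregulated, and all 18 were detected well enough to be tested.

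Of the 8 genes tested, 4 were upregulated (Atf3, Cebpb, Fosl1 and Junb) and 0 were downregulated, beside 3.09% of all genes upregulated. The genes were chosen with earlier results of these data known, so this count is a description and not a test of the set. Fosl1 passed the count filter only through the exposed libraries, and of the other 7 genes tested 3 were called. The log2-Fold changes of all 8, Fosl1 included, were above 0, as were those of 52.8% of all genes tested, and DESeq2 and limma-voom called none downregulated either. The other 4, Fos, Jun, Jund and Egr1, did not pass the test, and in each of them the libraries of the groups overlapped. In bulk tissue, a change in the number of cells of a type and a change in RNA per cell cannot be told apart. IDPN-4wk replicates 1 and 2 exceeded every control library in all 10 genes, beside 35.3% and 37.5% of all genes tested for each replicate singly. IDPN-4wk replicate 3 was the lowest of the exposed libraries in all 10, and the share of all genes lowest there was not counted. Of the 10, Fosb and Fosl2 reached at most 12 and 3 counts in any exposed library.

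Reference promoters are shown for the upregulated genes that RefSeq's promoter table holds (Cebpb, Fosl1 and Junb) and for Jund, a JUN relative that did not pass the test. Jun did not pass either and had no match in that table. The table matched 7 of the 10 genes by symbol. Each stretch runs from 250 bases before to 50 bases after the gene start on the GRCr8 build, 5′ to 3′ on the strand of the gene. Capitals mark matches, on either strand, to the letters TGACG (printed in reverse complement where the match is on the other strand), the palindrome TGACGTCA that holds them (the cAMP response element, CRE, bound by CREB and ATF factors), TGANTCA (AP-1), TTGCNNAA (C/EBP) and GCGNGGGCG (EGR).
Cebpb, chr3:176816755-176817054, plus strand: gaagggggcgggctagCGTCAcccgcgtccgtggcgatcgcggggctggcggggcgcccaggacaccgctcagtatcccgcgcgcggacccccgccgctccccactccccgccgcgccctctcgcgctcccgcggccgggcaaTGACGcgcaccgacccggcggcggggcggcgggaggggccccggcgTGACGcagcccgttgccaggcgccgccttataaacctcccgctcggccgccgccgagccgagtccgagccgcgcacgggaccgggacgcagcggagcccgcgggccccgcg
Fosl1, chr1:212183635-212183934, plus strand: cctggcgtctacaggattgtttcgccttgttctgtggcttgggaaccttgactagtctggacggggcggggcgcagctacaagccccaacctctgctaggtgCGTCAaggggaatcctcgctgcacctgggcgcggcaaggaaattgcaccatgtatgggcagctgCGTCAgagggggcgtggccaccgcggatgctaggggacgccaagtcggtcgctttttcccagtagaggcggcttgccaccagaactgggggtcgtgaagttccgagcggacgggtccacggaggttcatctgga
Junb, chr19:40080876-40081175, plus strand: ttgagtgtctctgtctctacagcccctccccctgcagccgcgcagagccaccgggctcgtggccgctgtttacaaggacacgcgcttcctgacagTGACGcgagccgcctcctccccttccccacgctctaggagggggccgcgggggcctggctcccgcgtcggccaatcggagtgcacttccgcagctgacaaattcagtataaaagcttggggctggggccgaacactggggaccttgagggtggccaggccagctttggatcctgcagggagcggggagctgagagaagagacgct
Jund, chr16:18769722-18770021, minus strand: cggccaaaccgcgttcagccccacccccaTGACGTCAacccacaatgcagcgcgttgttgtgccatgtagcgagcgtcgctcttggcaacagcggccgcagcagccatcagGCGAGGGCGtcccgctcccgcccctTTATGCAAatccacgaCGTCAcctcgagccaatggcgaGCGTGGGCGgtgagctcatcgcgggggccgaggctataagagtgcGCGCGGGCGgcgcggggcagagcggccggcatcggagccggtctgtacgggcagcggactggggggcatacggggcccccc

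The letters TGACG were in 5 of the 7 promoters found (Cebpb, Fosl1, Junb, Jund and Egr1), beside 21.2% of the 33469 promoters of the same length. They stood 3 times in Cebpb, at -234 to -230 on the minus strand and at -107 to -103 and -61 to -57 on the plus strand, with the gene start counted as position 1. Fosl1 held them at -148 to -144 and -84 to -80, both on the minus strand, and Junb at -155 to -151 on the plus strand. Jund had the whole TGACGTCA at -221 to -214, which 1.83% of all promoters hold. It also had 3 EGR matches, at -139 to -131, -76 to -68 and -31 to -23, where 4.98% of all promoters hold any, and a C/EBP match at -114 to -107. None of the 7 promoters held TGANTCA, which stands in 7.33% of all promoters. The C/EBP letters were found in 2 of the 7 (Fosb and Jund) and in 10.6% of all promoters. The share of G and C was above the median of 51.67% over all promoters in Cebpb (81%), Fosl2 (70.67%), Jund (69.67%), Junb (65.33%), Egr1 (64.67%) and Fosl1 (62.33%), and below it in Fosb (47.67%). These matches describe the reference sequence only. No binding was measured.

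Atf3 (ENSRNOG00000003745) was upregulated. Its level was 3.68, 4.26 and 3.68 CPM in the control libraries and 11.9, 8.61 and 5.86 CPM in IDPN-4wk replicates 1, 2 and 3. The control libraries lay close together, and all 3 exposed libraries were above them, spread over a wide range. The mean went from 3.87 ± 0.337 to 8.78 ± 3.01 CPM (SD, n = 3), a log2-Fold change of 1.18 (SE 0.27, 95% interval 0.59 to 1.76, edgeR Padj = 0.0113). The values rest on 52 to 61 counts per control library and 91 to 167 per exposed library. Without IDPN-4wk replicate 1, the highest library, the log2-Fold change was 0.90 and Atf3 was no longer called (edgeR Padj = 0.0509).

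Cebpb (ENSRNOG00000057347), whose promoter with 3 TGACG matches is printed above, was upregulated with the smallest Padj of the 8 genes tested. Control libraries held 4.71, 4.89 and 3.68 CPM, and IDPN-4wk libraries held 10.5, 13.5 and 8.30 CPM. The lowest exposed library was thus 1.88 times the control mean, and the groups were well apart. The mean of Cebpb went from 4.43 ± 0.654 to 10.8 ± 2.59 CPM (SD, n = 3), with a log2-Fold change of 1.28 (SE 0.23, 95% interval 0.78 to 1.78, edgeR Padj = 0.00304). It stayed called with any 1 library left out, with log2-Fold changes from 1.08 to 1.42 and edgeR Padj of at most 0.0165, and it was the only 1 of the 8 that passed edgeR's glmTreat, which tests against the fold of 1.5 itself (Padj = 0.0450).

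**Figure D1:**
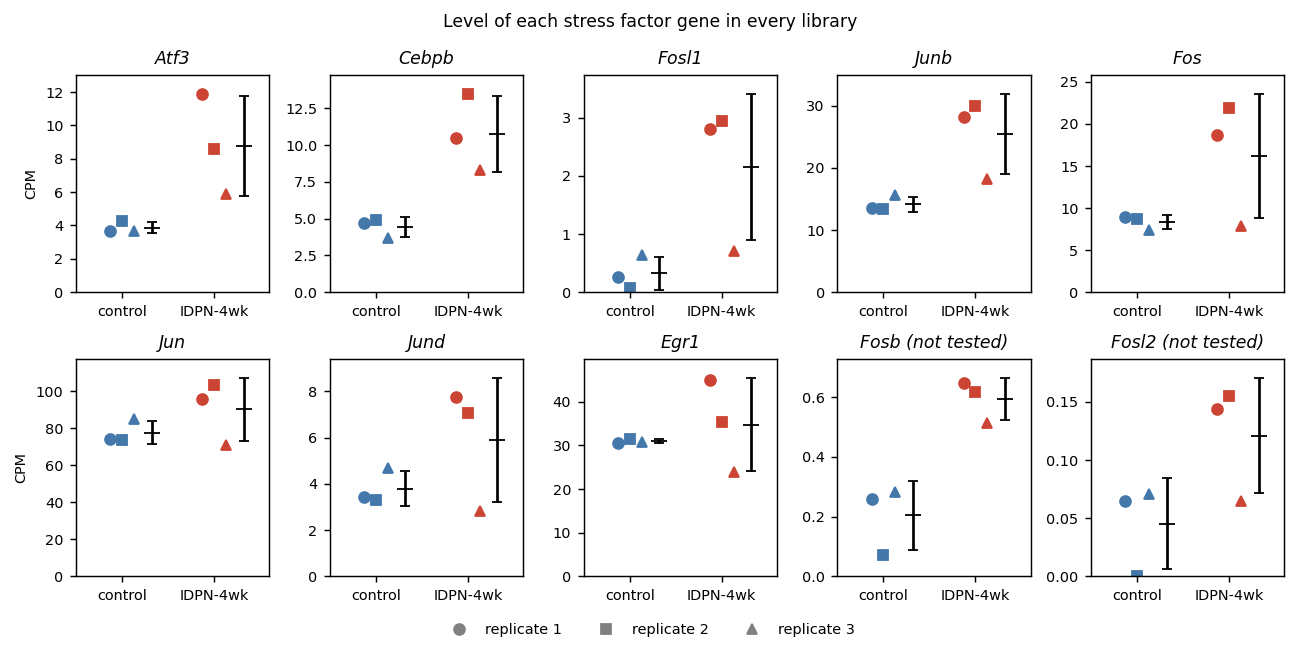
Level of each gene in CPM in the 3 control (blue) and 3 IDPN-4wk (red) libraries. Symbols mark replicates 1 to 3, and the black bars give the mean and SD of each group. Atf3, Cebpb, Fosl1, Junb and Fosb have every IDPN-4wk point above every control point, and IDPN-4wk replicate 3 (red triangle) is the lowest exposed library in all 10 panels.

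Of the other C/EBP family genes, 0 of the 4 tested were called with edgeR and TMM scaling, beside 9.71% of all genes, and DESeq2 and limma-voom called none. Of the 4, 2 had an unadjusted p under 0.05 (Cebpd and Cebpa, both higher), beside 15.6% of all genes higher and 17.4% lower at that threshold. The nearest was Cebpd, which encodes C/EBPδ, the other inflammation-induced member of the family. Cebpd stood at 20.1, 30.8 and 25.5 CPM in control and at 49.7, 58.9 and 24.7 CPM in IDPN-4wk, with replicate 3 inside the control range (log2-Fold change 0.81, SE 0.27, edgeR Padj = 0.0561). Without that library Cebpd was called, at a log2-Fold change of 1.08 (edgeR Padj = 9.97e-04), and edgeR also called it with library size alone (0.92, Padj = 0.0273), with upper quartile scaling (0.84, Padj = 0.0463) and with no filter on low counts (0.81, Padj = 0.0246). Cebpa passed the count filter only through the exposed libraries, like Fosl1. It was at 0.140 to 0.566 CPM in control and at 0.708 to 1.51 CPM in IDPN-4wk, with a log2-Fold change of 1.43 that did not pass (edgeR Padj = 0.0982). Cebpg and Ddit3, which encodes the stress-induced C/EBP inhibitor CHOP, had log2-Fold changes of 0.12 and 0.048 (edgeR Padj = 0.421 and 0.766). The ratio of Cebpb to Cebpd within a library was higher in IDPN-4wk by 0.53 on the log2 scale, a difference that did not pass (exact two-sided permutation test, p = 0.3).

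In the FOS family, Fosl1 was the gene that was called. Fosl1 (ENSRNOG00000020552) encodes FRA-1, a FOS protein without the transactivation domain of c-FOS that is known to accumulate under sustained rather than brief ERK signalling. It stood at 0.258, 0.0699 and 0.637 CPM in control, that is 4, 1 and 9 counts, and at 2.80, 2.94 and 0.708 CPM in IDPN-4wk, or 39, 57 and 11 counts. Replicates 1 and 2 were far above the controls, while replicate 3 was barely above the highest control. The log2-Fold change was 2.72 (SE 0.70, 95% interval 1.19 to 4.26, edgeR Padj = 0.0202). At these counts Fosl1 passed the filter only through the exposed libraries, and without control replicate 1, control replicate 2, IDPN-4wk replicate 1 or IDPN-4wk replicate 2 it lost its call (log2-Fold change 2.59, 2.26, 2.49 and 2.41, edgeR Padj = 0.0665, 0.0733, 0.0758 and 0.0781).

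Fos (ENSRNOG00000008015), the immediate early gene for c-FOS, was at 8.98, 8.74 and 7.43 CPM in control and at 18.7, 21.9 and 7.85 CPM in IDPN-4wk. IDPN-4wk replicates 1 and 2 were 2.23 and 2.62 times the control mean and replicate 3 was 0.937 times it, so the exposed group held both the highest libraries and 1 inside the control range. Its log2-Fold change of 0.95 (SE 0.31, 95% interval 0.28 to 1.62) missed the threshold by little (edgeR Padj = 0.0515). DESeq2, the tool the study used, called Fos on the same counts (log2-Fold change 0.94, Padj = 0.00646). Without IDPN-4wk replicate 3 edgeR called it too, at a log2-Fold change of 1.26 (Padj = 4.32e-04).

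Fosb (ENSRNOG00000046667) had 4, 1 and 4 counts in control and 9, 12 and 8 counts in IDPN-4wk. Each exposed library was thus above each control library, at counts too low for the filter. Summed over the group, 29 counts against 9 gave a ratio of 2.90 after scaling, with a counting interval of 1.34 to 6.96 that covers counting error only. Fosl2 (ENSRNOG00000052357), which encodes FRA-2, had 1, 0 and 1 counts in control and 2, 3 and 1 in IDPN-4wk, a ratio of 2.70 with a counting interval of 0.483 to 27.3. In a fit with no filter neither was called (edgeR Padj = 0.234 for Fosb and 0.601 for Fosl2). The ratio of Fosl2 to Fos was 0.22 higher in IDPN-4wk on the log2 scale, less than its SD of 0.965 over the control libraries (exact two-sided permutation test, p = 0.9), and its direction turned when 5 in place of 0.5 counts were added, to -0.64, and without control replicate 2, to -0.32. Together the 4 FOS family genes took 9.56, 8.88 and 8.42 CPM in control and 22.3, 25.6 and 9.14 CPM in IDPN-4wk, most of it from Fos.

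In the JUN family, Junb was upregulated, while Jun and Jund did not pass. Junb (ENSRNOG00000042838) encodes JUNB, an immediate early JUN protein that activates transcription less strongly than c-JUN and can hold it in check. It was at 13.6, 13.3 and 15.6 CPM in control and at 28.2, 30.02 and 18.2 CPM in IDPN-4wk. Replicates 1 and 2 were 1.99 and 2.12 times the control mean, and replicate 3, at 1.28 times, was still above every control library. The mean of Junb went from 14.2 ± 1.23 to 25.5 ± 6.39 CPM (SD, n = 3), a log2-Fold change of 0.85 (SE 0.18, 95% interval 0.45 to 1.25, edgeR Padj = 0.00842). It kept its call with any 1 library left out, at log2-Fold changes from 0.71 to 1.03 and edgeR Padj of at most 0.0406.

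Jun (ENSRNOG00000026293), the gene for c-JUN and the JUN kinase substrate that gives the kinase its name, stood at 74.3, 73.8 and 84.9 CPM in control and at 96.1, 103 and 71.3 CPM in IDPN-4wk. IDPN-4wk replicate 3 was below every control library. The log2-Fold change was 0.22 (SE 0.13, 95% interval -0.060 to 0.49, edgeR Padj = 0.260), an interval that ends below the fold of 1.5. Jund (ENSRNOG00000019568), whose promoter holds the TGACGTCA printed above and whose protein is present in many resting cells, was at 3.42, 3.28 and 4.67 CPM in control and at 7.76, 7.07 and 2.83 CPM in IDPN-4wk. The exposed group thus held both the highest libraries and the lowest (log2-Fold change 0.64, 95% interval -0.14 to 1.41, edgeR Padj = 0.238). Without IDPN-4wk replicate 3 Jund was called, at a log2-Fold change of 0.95 (edgeR Padj = 0.0258), and Jun reached a log2-Fold change of 0.35 (edgeR Padj = 0.0215), under the fold threshold.

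The balance between JUN genes was read as a ratio within each library, which does not depend on how libraries are scaled. The log2 ratio of Junb to Jun was -2.45, -2.46 and -2.44 in control and -1.77, -1.78 and -1.97 in IDPN-4wk. The control libraries agreed closely, and all 3 exposed libraries were higher, by 0.61 on average (exact two-sided permutation test, p = 0.1, 0.3 after Benjamini-Hochberg adjustment over the 6 ratios examined). With 3 libraries against 3 the smallest p that can be reached is 0.1, so no ratio could pass. The ratio of Atf3 to Jun was also higher in all 3 exposed libraries, by 0.92 (exact permutation test, p = 0.1, adjusted 0.3). For Jund to Jun and Junb to Jund the differences were 0.32 and 0.30 (exact permutation test, p = 0.4 for each, adjusted 0.48), and the libraries overlapped.

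**Figure D2:**
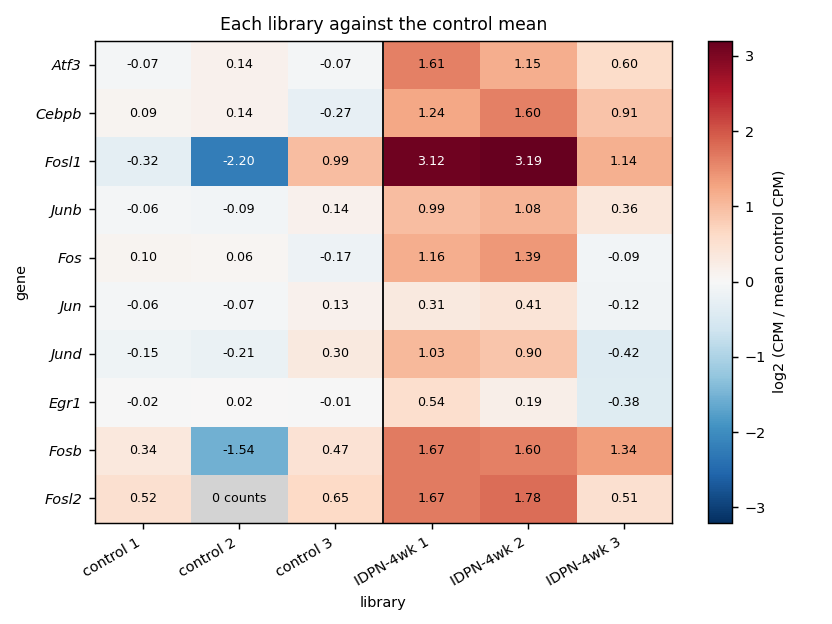
Log2 ratio of each library's CPM to the mean of the 3 control libraries, for each gene (rows) and library (columns). The columns of IDPN-4wk replicates 1 and 2 are above 0 in every row, from 0.19 to 3.19, while replicate 3 runs from -0.42 for Jund to 1.34 for Fosb. Fosl2 had 0 counts in control replicate 2.

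Egr1 (ENSRNOG00000019422), a zinc finger immediate early gene driven by ERK and serum response factor, did not pass the test. Its level was 30.6, 31.5 and 30.9 CPM in control, the narrowest spread relative to the mean of the 10 genes, and 45.0, 35.4 and 23.8 CPM in IDPN-4wk. The exposed libraries lay on both sides of the controls. The mean went from 31.0 ± 0.433 to 34.8 ± 10.6 CPM (SD, n = 3), with a log2-Fold change of 0.16 (SE 0.18, 95% interval -0.24 to 0.57, edgeR Padj = 0.575). Without IDPN-4wk replicate 1 the direction turned, to -0.069 (edgeR Padj = 0.822), and without replicate 3 the value was 0.36 (edgeR Padj = 0.0643).

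**Figure D3:**
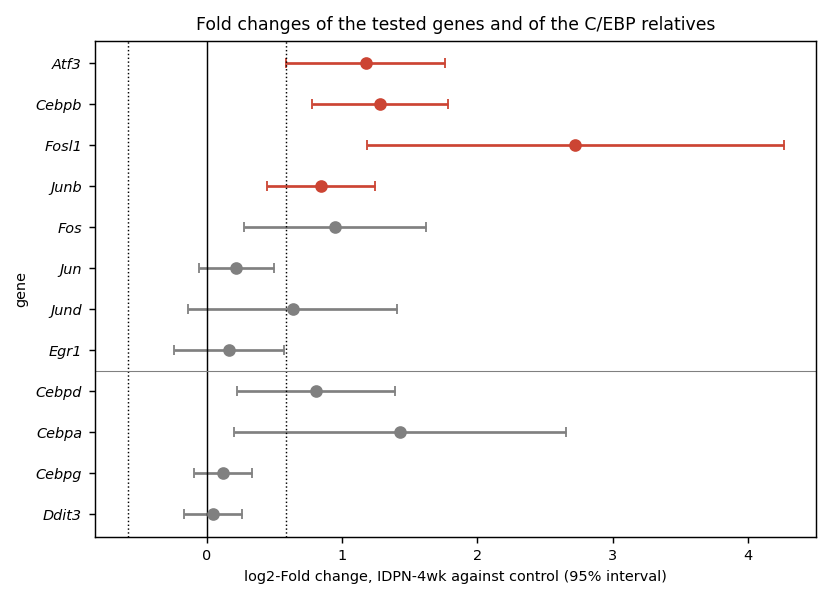
Log2-Fold change of IDPN-4wk against control with its 95% interval from edgeR, for the 8 genes tested and, under the line, the 4 tested C/EBP relatives. Red marks genes called, grey genes not called, and dotted lines the fold of 1.5. Fosl1 has the largest value and the widest interval, and the 4 called genes have intervals wholly above 0.

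The coefficient of variation over the exposed libraries, from 18.7% for Jun to 45.6% for Fos, exceeded that over the control libraries, from 1.40% for Egr1 to 20.1% for Jund, in 7 of the 10 genes. It was smaller in the sparsely counted Fosb, Fosl1 and Fosl2, where it was 57.2%, 89.8% and 86.9% in control and 11.7%, 58.2% and 40.8% in IDPN-4wk, and it was larger in IDPN-4wk for 53.5% of all genes tested. The 10 genes summed to 140, 140 and 152 CPM in control and to 222, 224 and 139 CPM in IDPN-4wk, a sum in which Jun and Egr1 take most of the counts. Of the 8 genes tested, IDPN-4wk replicates 1 and 2 were above all controls in 8 each, and replicate 3 in 4 (Atf3, Cebpb, Fosl1 and Junb). In replicate 3 a further 3 (Jun, Jund and Egr1) were below all controls, a count for which no share over all genes was taken. Over all genes tested, 35.3%, 37.5% and 32.7% were above all controls in replicates 1, 2 and 3. Without replicate 3, 6 of the 8 were called, beside 3.34% of all genes upregulated in that fit, and without replicate 1, 2 of the 8 (Cebpb and Junb), beside 2.33%. Without replicate 2 it was 3 of the 8 (Atf3, Cebpb and Junb), beside 2.18%.

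Markers of the cell types in the tissue were summed in the same libraries. HC markers summed to 7943 to 9030 CPM in control and to 3420, 3599 and 4478 CPM in IDPN-4wk replicates 1, 2 and 3. Of this, Spp1 alone took 4078 to 5042 CPM in control and 1029, 1162 and 1619 CPM in IDPN-4wk. Supporting cell markers summed to 10652 to 11709 CPM in control and to 6423, 5932 and 7260 CPM in IDPN-4wk. Replicate 3 had the highest sums of both among the exposed libraries, and among HC markers only Calb2 and Espn were not highest in it. The supporting cell sum was in large part 1 gene, Otog, at 3032, 2740 and 3825 CPM in IDPN-4wk. Gjb2 (826, 701 and 683 CPM), Sox9 (346, 385 and 334 CPM), Hes1 (41.4, 45.4 and 31.6 CPM) and Prox1 of that list were lowest in replicate 3. Red blood cell genes summed to 148 to 176 CPM in control and to 232, 351 and 169 CPM in IDPN-4wk, with replicates 1 and 2 above the controls and replicate 3 among them, and Hbb was called (log2-Fold change 0.66, edgeR Padj = 0.0380). That call was lost with DESeq2 (Padj = 0.112), which called 1 other of the 4 genes, with limma-voom (Padj = 0.0530), with edgeR's glmTreat test against the fold threshold, and without any 1 library other than IDPN-4wk replicate 3 (edgeR Padj = 0.0631 to 0.115). Macrophage and granulocyte markers summed to 290 to 363 CPM in control and to 397, 218 and 366 CPM in IDPN-4wk. Of this, Lyz2 alone took 204, 204 and 170 CPM in control and 196, 118 and 231 CPM in IDPN-4wk. Of the 12 markers tested, 1 was upregulated, beside 3.09% of all genes (C1qb, log2-Fold change 0.71, lost without control replicate 3 or IDPN-4wk replicate 1 at 0.53 and 0.52). The granulocyte genes Mpo, S100a8 and S100a9 stayed under 1 CPM in every library. Their part in the results was not tested.

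**Figure D4:**
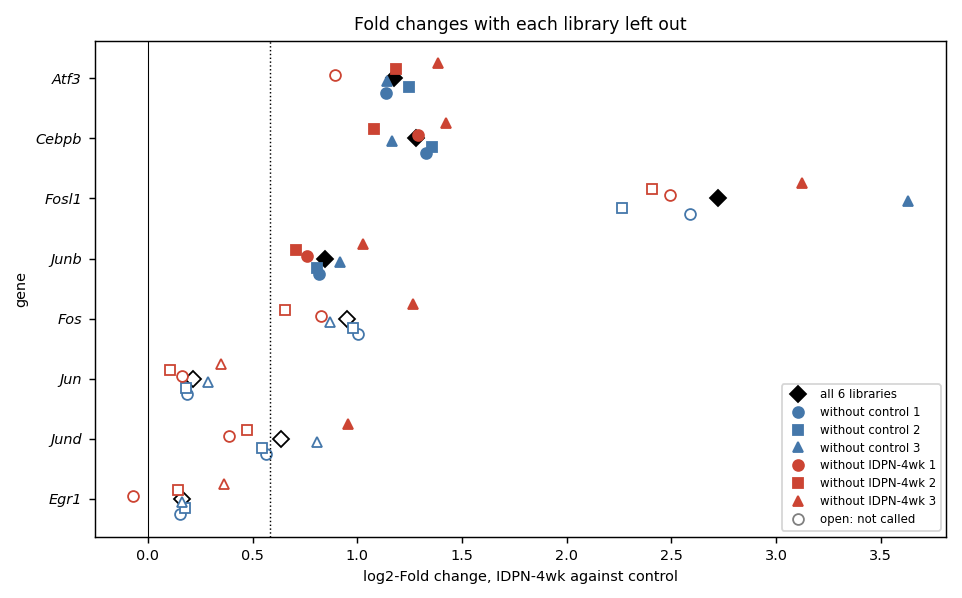
Log2-Fold change of each tested gene with all 6 libraries (black diamond) and with each library left out. Filled symbols are called and open symbols are not. Cebpb and Junb are filled throughout, and the triangle for the fit without IDPN-4wk replicate 3 lies to the right of the diamond for all 8 genes.

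The genes whose levels over the 6 libraries were most like Atf3 were Slc9a3r1 (Pearson r = 0.997 of log2 CPM), Chrd (r = 0.994), Sat1 (r = 0.992), Slc4a2 (r = 0.990) and Ttpal (r = 0.988), of which Chrd, a secreted BMP antagonist, was upregulated (log2-Fold change 0.74, edgeR Padj = 0.0101). Sat1 encodes the stress-inducible enzyme that acetylates polyamines. Those most like Cebpb were Bicdl2 (r = 0.999), Stat2 (r = 0.997), Nfkbia (r = 0.995), Setd6 (r = 0.994) and Cavin1 (r = 0.994). Bicdl2 (log2-Fold change 1.05), Stat2 (0.67), the interferon pathway factor, and Setd6 (0.74) were upregulated, and Nfkbia, the NF-κB inhibitor, had a log2-Fold change of 0.57 that was under the fold threshold. Stat2 came under that threshold without control replicate 3 or IDPN-4wk replicate 2 (0.58 and 0.56), Setd6 lost its call without either (edgeR Padj = 0.0639 and 0.0658), and Nfkbia was called without control replicate 1, control replicate 2 or IDPN-4wk replicate 3 (0.59, 0.62 and 0.62) and with library size alone or upper quartile scaling (0.68 and 0.60), as was Sat1 with library size alone (0.65) and in the fit that left out IDPN-4wk replicate 3 (0.62). These are the top 5 among all tested genes for each, over 6 libraries in 2 groups, given as a description.

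Among 13 tested AP-1 and Maf partners, basic leucine zipper proteins that share targets or dimers with FOS and JUN, 2 were upregulated and 0 downregulated with edgeR, DESeq2 and limma-voom alike (unadjusted p under 0.05 in 5 and 1), and the median log2-Fold change was 0.35. Over all genes tested, the edgeR calls took 3.09% higher and 6.62% lower, the unadjusted threshold 15.6% and 17.4%, and the median was 0.019. Nfe2 was at 18.1, 17.2 and 20.0 CPM in control and at 28.3, 35.5 and 29.1 CPM in IDPN-4wk (log2-Fold change 0.75, edgeR Padj = 0.00225). Maff, a small Maf protein, was upregulated at a log2-Fold change of 0.96 (edgeR Padj = 0.0282), and lost its call without control replicate 1, control replicate 2, IDPN-4wk replicate 1 or IDPN-4wk replicate 2 (edgeR Padj = 0.0580, 0.0877, 0.0752 and 0.104). Of the 14 other ATF and CREB genes tested, 0 were upregulated with any of these tools (unadjusted p under 0.05 in 3 higher and 3 lower), their median log2-Fold change was -0.018, and Atf5 was downregulated, from 21.2, 32.2 and 31.7 CPM in control to 14.7, 12.9 and 10.6 CPM in IDPN-4wk (log2-Fold change -1.16, edgeR Padj = 0.00147).

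Of 40 other immediate early genes tested, 3 were upregulated and 1 downregulated with edgeR and limma-voom, 5 and 1 with DESeq2 (unadjusted p under 0.05 in 14 and 3). The median log2-Fold change was 0.12, beside 0.019 over all genes tested. Of all genes tested, 3.09% and 6.62% were called in these directions with edgeR, and 15.6% and 17.4% had an unadjusted p under 0.05. Ctgf, the matricellular growth factor CCN2, was at 274, 182 and 178 CPM in control and at 696, 854 and 768 CPM in IDPN-4wk (log2-Fold change 1.87, edgeR Padj = 3.66e-05), and here replicate 3 lay between the other 2. Zfp36, which encodes the mRNA-destabilising protein tristetraprolin, was upregulated (log2-Fold change 0.62, edgeR Padj = 0.00418) and fell under the fold threshold without control replicate 2 or IDPN-4wk replicate 2 (0.54 in both). Maff, also in this list, was the third, and the kinase gene Plk2 was downregulated (log2-Fold change -0.81, edgeR Padj = 2.60e-04).

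Upstream of AP-1, 2 of 38 MAP kinases and upstream kinases were upregulated and 0 downregulated (unadjusted p under 0.05 in 10 and 4, DESeq2 2 and 0, limma-voom 3 and 0), beside 3.09% and 6.62% of all genes called and 15.6% and 17.4% with an unadjusted p under 0.05, and their median log2-Fold change was 0.082 (0.019 for all genes). They were Mapk13, the p38δ kinase (log2-Fold change 1.07, edgeR Padj = 0.0189), and Mapk7, the ERK5 kinase (log2-Fold change 0.70, edgeR Padj = 0.0236). Mapk13 lost its call without control replicate 2, control replicate 3 or IDPN-4wk replicate 2, and Mapk7 without control replicate 3, IDPN-4wk replicate 1 or IDPN-4wk replicate 2, where their log2-Fold changes were 1.02, 0.93 and 1.01, and 0.48, 0.61 and 0.67. None of the 7 tested SRF, ELK and MRTF regulators, which drive Fos and Egr1, was called with edgeR, DESeq2 or limma-voom. The smallest p were those of Elk4 and Ets1 (log2-Fold change 0.33 and 0.20, edgeR Padj = 0.112 and 0.134), and 2 of the 7 had an unadjusted p under 0.05.

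Of 18 textbook AP-1 targets tested, 4 were upregulated and 1 downregulated with edgeR, DESeq2 and limma-voom (unadjusted p under 0.05 in 8 and 3), with a median log2-Fold change of 0.30. The shares of all genes tested were 3.09% and 6.62% called with edgeR and 15.6% and 17.4% at the unadjusted threshold, with a median of 0.019. Of the 4, Mmp9 passed the count filter only through the exposed libraries, and without it 3 of 17 were upregulated and the median was 0.27. Plau, the urokinase protease, was at 1.81, 1.47 and 1.63 CPM in control and at 4.74, 5.98 and 5.73 CPM in IDPN-4wk (log2-Fold change 1.74, edgeR Padj = 0.00107). Nqo1 and Hmox1, antioxidant enzymes that NRF2 also drives, had log2-Fold changes of 0.74 and 0.77 (edgeR Padj = 0.00290 and 0.0140), and Hmox1 lost its call without control replicate 2, IDPN-4wk replicate 1 or IDPN-4wk replicate 2 (edgeR Padj = 0.0552, 0.0623 and 0.0603). The matrix protease gene Mmp9, named after its values were seen, was the remaining one, with 3, 0 and 9 counts in control and 39, 23 and 13 counts in IDPN-4wk, or 0.837 to 2.80 CPM (edgeR Padj = 0.0484). Spp1, the downregulated gene (log2-Fold change -1.83), is also an HC marker in this epithelium.

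Among 13 tested C/EBPβ and acute phase genes, 4 were upregulated and 0 downregulated with edgeR and limma-voom, 5 and 1 with DESeq2 (unadjusted p under 0.05 in 7 and 1), and the median log2-Fold change was 0.56. Beside them, edgeR called 3.09% of all genes tested higher and 6.62% lower, 15.6% and 17.4% had an unadjusted p under 0.05, and the median of all genes was 0.019. The growth factor gene Csf1 was at 18.4, 16.4 and 17.9 CPM in control and at 38.5, 37.7 and 30.3 CPM in IDPN-4wk (log2-Fold change 1.01, edgeR Padj = 3.23e-04). Ptx3, a pentraxin, Ptges, a prostaglandin E synthase, and Steap4, a metalloreductase, had log2-Fold changes of 0.75, 0.94 and 1.11 (edgeR Padj = 0.0157, 0.0275 and 0.0368). Without control replicate 2 their edgeR Padj were 0.0565, 0.0705 and 0.122, and without IDPN-4wk replicate 1 they were 0.0710, 0.0942 and 0.0904. Ptges and Steap4 also lost their calls without control replicate 3 (edgeR Padj = 0.0929 and 0.112) or IDPN-4wk replicate 2 (edgeR Padj = 0.0806 and 0.118). The log2-Fold change was above 0 in 12 of the 13, and Lcn2, named after its values were seen, was the other. It was at 629, 735 and 743 CPM in control and at 490, 480 and 440 CPM in IDPN-4wk, under the fold threshold (log2-Fold change -0.58, edgeR Padj = 9.31e-04). The list summed to 1151 to 1218 CPM in control and to 1212, 1154 and 1001 CPM in IDPN-4wk.

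Of 10 tested genes known to move with Atf3 after nerve injury, 2 were upregulated and 1 downregulated with edgeR and limma-voom, 3 and 1 with DESeq2 (unadjusted p under 0.05 in 4 and 2), with a median log2-Fold change of 0.39. For all genes tested these shares were 3.09% and 6.62% with edgeR and 15.6% and 17.4% unadjusted, and the median was 0.019. Npy, a neuropeptide gene induced in injured sensory neurons, was at 32.4, 38.6 and 36.0 CPM in control and at 69.2, 69.2 and 76.0 CPM in IDPN-4wk (log2-Fold change 1.00, edgeR Padj = 6.14e-05). The heat shock protein gene Hspb1 was also upregulated (log2-Fold change 0.83, edgeR Padj = 0.00375). Gap43, the growth cone gene, went the other way, from 7.30, 12.8 and 9.63 CPM in control to 0.144, 0.309 and 0.901 CPM in IDPN-4wk (log2-Fold change -4.43, edgeR Padj = 1.13e-04). In the integrated stress response, which can induce Atf3 through ATF4, 1 of 17 tested genes was upregulated and 3 were downregulated with edgeR, DESeq2 and limma-voom (unadjusted p under 0.05 in 5 and 3), with a median log2-Fold change of 0.14, beside the same shares of all genes (3.09% and 6.62% called, 15.6% and 17.4% unadjusted). Atf4 itself, named after its values were seen, stood at 146, 142 and 152 CPM in control and at 182, 187 and 167 CPM in IDPN-4wk, without overlap but under the fold threshold (log2-Fold change 0.28, edgeR Padj = 0.0206). Ddit4, an inhibitor of mTORC1, rose (log2-Fold change 0.61, edgeR Padj = 0.00949), while Slc7a11, the cystine transporter, Vldlr and Atf5 fell (log2-Fold change -0.79, -0.67 and -1.16). Ddit4 fell under the fold threshold without control replicate 3 or IDPN-4wk replicate 2 (0.47 and 0.53), and Vldlr without IDPN-4wk replicate 2 (-0.50) or with library size alone (-0.56).

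**Figure D5:**
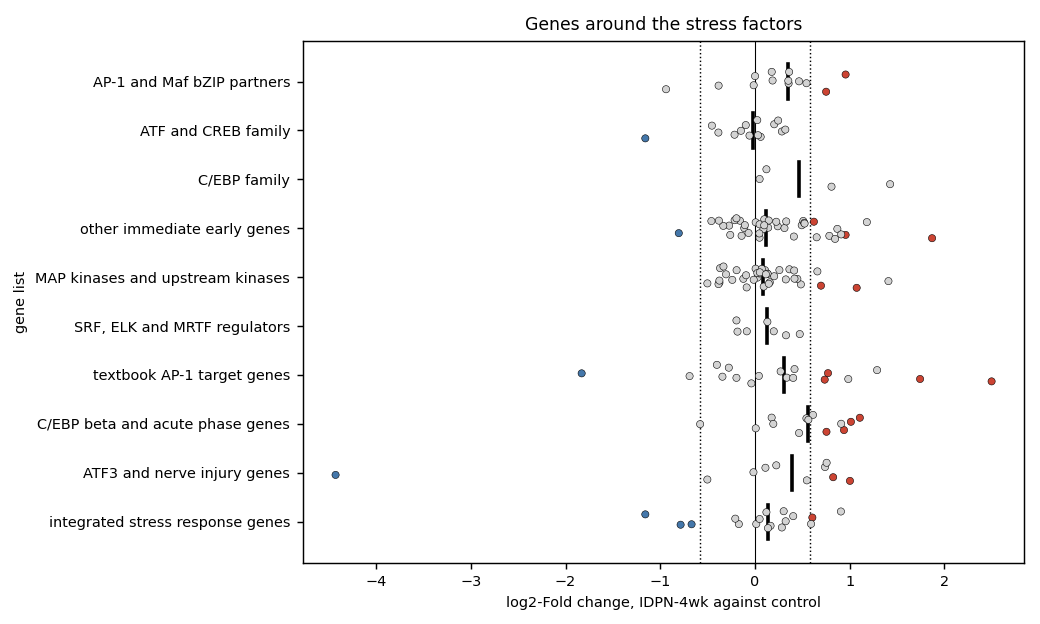
Log2-Fold change of IDPN-4wk against control for every tested gene of 10 lists around the stress factors. Points are genes, red upregulated, blue downregulated and grey not called, black bars are medians, and dotted lines mark the fold of 1.5. The medians lie between -0.018 for the ATF and CREB family and 0.56 for C/EBPβ and acute phase genes, beside 0.019 over all genes tested.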

How the data were processed

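RNA-seq was done by the authors on vestibular epithelium of 3 control and 3 IDPN-4wk rats (SMART-seq2, 6 to 11 ng of RNA, 8 and 12 PCR cycles). Reads were mapped with STAR 2.5.3a to Rnor6.0 and the authors estimated expected counts per gene with RSEM, version 1.3.0 per the submitters' processing notes. These were whole numbers as deposited, and rounding changed 0 values. RSEM divides reads shared by paralogs, and the protocol keeps no strand, so antisense and sense reads are counted together.

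Groups came from the treatment label. Replicates were numbered in accession order, each being 1 animal. A single batch label covers all libraries. In the titles, one code prefix covers every treated rat and the controls carry other prefixes, whose meaning is not given in the sources used here. Whatever it marks cannot be told apart from treatment.

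Counts were filtered with filterByExpr (minimum count 10, total 15), scaled with TMM and tested with edgeR 4.0.16 (glmQLFit, glmQLFTest) in R 4.3.3. Alternatives were other scalings and filters, DESeq2 1.42.0, limma-voom (limma 3.58.1), glmTreat and leaving out each library. Ratios used log2 of counts plus 0.5. Intervals for summed counts are 95% and cover counting error only. Scripts were tested on simulated data.

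The members and lists were chosen with earlier results of these data known. Named genes are the members, the tested C/EBP genes, up to 4 called genes of smallest p per list (in a list with none, the 2 of smallest p), and the 5 genes most like Atf3 and most like Cebpb by Pearson r of log2 CPM (prior count 2).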

Additional observations from a re-analysis of the deposited data

How the results depend on the processing

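The number of the 10 genes upregulated was 4 with DESeq2's size factors in edgeR, with limma-voom and with no fold threshold, 5 with library size alone, upper quartile scaling, no filter or DESeq2's test (Fos added in each), and 3 with a mean count of at least 50, which removed Fosl1. With glmTreat against the fold of 1.5 it was 1 (Cebpb), and with each library left out in turn it ran from 2 to 6. None was downregulated in any of these settings. The direction turned for Egr1 without IDPN-4wk replicate 1 (range with 1 library left out -0.069 to 0.36), for Ddit3 without IDPN-4wk replicate 2 (-0.015 to 0.080), and for the ratio of Fosl2 to Fos without control replicate 2 (-0.32 to 0.60) and with 5 counts added (-0.64). The cause was not tested. Over the 58 named genes that were tested and all alternatives, 763 values kept direction and side of the threshold, 81 lost the call, 22 gained it and 2 turned. Over all genes, 762 were upregulated with library size alone, where the median log2-Fold change was 0.13 and 50.6% of called genes were downregulated against 68.1% with TMM. With glmTreat 99 were upregulated and 354 downregulated, and without a fold threshold 1132 and 1646. With each library left out, 317 to 486 were upregulated and 768 to 1095 downregulated. No paired analysis was possible because the labels give no replicate numbers that could pair the animals. With 3 animals a group, the ratios could not reach a p under 0.1, and Fosb, Fosl1, Fosl2 and Cebpa rested on few counts.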

Other observations

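Other markers were read in the same libraries. Of 12 supporting cell markers, 4 were downregulated and 0 upregulated with edgeR, DESeq2 and limma-voom (unadjusted p under 0.05 in 7 and 2, median log2-Fold change -0.33), beside 6.62% and 3.09% of all genes called with edgeR, 17.4% and 15.6% at an unadjusted p under 0.05 and a median of 0.019. Among the 4 were Gjb6, a gap junction gene, and Otog and Otogl, which encode proteins of the otolithic and cupular membranes (log2-Fold change -0.86, -0.97 and -0.89). Of 8 Schwann cell markers (median log2-Fold change -0.49), 1 was downregulated with edgeR and DESeq2 and 3 with limma-voom (unadjusted p under 0.05 in 5 lower and 1 higher). In edgeR it was the myelin gene Pmp22 (log2-Fold change -0.59, Padj = 0.0148), which came under the fold threshold with library size alone (-0.48), with upper quartile scaling (-0.55) and without control replicate 1, control replicate 3 or IDPN-4wk replicate 2 (-0.50, -0.58 and -0.43). The sum of the list was 8489 to 10730 CPM in control and 8100, 5800 and 8698 CPM in IDPN-4wk replicates 1, 2 and 3. Of 11 stroma and endothelium markers, Col1a1 was upregulated (log2-Fold change 0.74) and Lum downregulated (-1.42), with sums of 1296 to 1478 CPM in control and 1326, 1321 and 1268 CPM in IDPN-4wk.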
